A study of Rattus norvegicus with 8 samples.

Results

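Bst1 and 5 other genes for enzymes that act on nucleotides outside the cell were followed in NR8383, an established rat alveolar macrophage cell line, at passage 20 (P20) and passage 200 (P200). The 6 genes were Bst1, Cd38, Nt5e, Entpd1, Enpp1 and Enpp3, and their probes were found by gene name. They were chosen by the measured difference of these same arrays between P200 and P20 and by detection on each array, so their values are given as a description with no test. The 6 genes had 7 probes and 16 spots on each array, out of 36181 named genes and other features. Of the 6 genes, 4 were well above background on all 8 arrays, and 5 passed the filter on dim probes and were among the 15651 genes tested.

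RNA came from 4 biological replicates of each passage, and each was hybridised alone, labelled with Cy3, to an Agilent rat expression array. The cells had been obtained from a cell collection, originated from lung lavage of a normal rat, and received no treatment at either passage. All cells grew in the same serum-containing medium, partly attached and partly floating. How the replicate flasks were separated, and how the P20 and P200 cells were related in culture, are not given in the sources used here, so passage number and any other difference in culture history cannot be told apart, and p-values measure only the spread between these flasks.

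The ectoenzymes of this group sit on the cell surface or are shed from it and break down ATP, NAD and related molecules that cells release. Entpd1 (CD39) takes ATP and ADP to AMP, and Nt5e (CD73) takes AMP to adenosine, which acts on adenosine receptors of immune cells. Cd38 and Bst1 (CD157) belong to one family that cleaves NAD and can form cyclic ADP-ribose, a calcium-mobilising messenger, and Enpp1 and Enpp3 are phosphodiesterases that split ATP and other nucleotides. In macrophages this balance of ATP against adenosine is known to shape inflammatory signalling, and Bst1, named for bone marrow stroma, is also known on myeloid cells.

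All 8 arrays lay on 1 slide and were read in 1 scan. The arrays differed in brightness, with a 75th percentile of signal between 197 and 369, 51.02% to 54.47% of spots were well above background, and no spot was saturated. Each level below is the log2 of a probe's processed signal minus that array's 75th percentile, so 0 marks the 75th percentile, and levels of different probes are not compared. Of 14 macrophage marker genes, 13 were on the array and 10 were well above background on all 8 arrays, Ptprc, Cd68, Csf1r and Spi1 among them, while Adgre1 and Chi3l3 were above background on none. Their summed level was 9.88 to 10.16 at P20 and 9.87 to 9.95 at P200. Most of that sum was Lyz2, at 9.47 ± 0.18 (SD, n = 4) at P20 and 9.26 ± 0.04 (SD, n = 4) at P200. Of the 10, 2 were lower at P200 by limma, namely Siglec5 by -1.69 ± 0.11 (SE, adjusted p = 1.85e-05) and Itgam by -0.78 ± 0.13 (SE, adjusted p = 0.00515).

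Bst1 was the member with the largest difference between passages. Its probe lay on the minus strand at chr14:72404510-72404569 of rn4, the build in the scanner files, which do not say whether it is coding or untranslated sequence. The processed signal was 2000, 1910, 1480 and 1820 on P20 replicates 1 to 4, and 69.3, 74, 104 and 58 on P200 replicates 1 to 4. All 8 of these signals were well above background, and the lowest P20 signal was far above the highest P200 signal. On the log2 scale the P20 arrays stood at 2.61, 2.58, 2.44 and 2.58, and the P200 arrays at -2.41, -1.83, -1.55 and -1.76. The 4 P20 arrays lay close together and the P200 arrays were spread more widely, with replicate 1 the lowest.

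The mean level of Bst1 was 2.55 ± 0.07 (SD, n = 4) at P20 and -1.89 ± 0.37 (SD, n = 4) at P200. The difference was -4.44 ± 0.16 (moderated SE), which is 21.8-fold lower at P200. Only 37 of the 15651 genes tested, or 0.236%, differed by at least 4 log2 units in either direction. Bst1 had rank 1 by size of fall if only genes detected on all 8 arrays are ranked, and rank 17 among all genes tested. In bulk RNA such as this, fewer cells that express the gene and less of its RNA per cell cannot be told apart.

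The slide carries its arrays in 2 rows, and the rows hold unequal numbers of each passage. P20 replicate 1 and P200 replicates 2, 3 and 4 were in row 1, and the other 4 arrays were in row 2. The Bst1 difference was -4.33 within row 1 and -4.95 within row 2. With the row as a block in the fit it was -4.64.

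Bst1 has a close relative as its neighbour, since Cd38 lies next to it in the RefSeq gene order. The Cd38 probe was at chr14:72320806-72320865 of rn4, 83.6 kb from the Bst1 probe, on the same strand. Cd38 was well above background on 0 of 8 arrays, with a processed signal of 4.17 to 6.87 at P20 and 4.36 to 6.26 at P200. It was therefore not tested, and its signals at the 2 passages overlapped. No fold is given for it, because neither passage had a signal well above background.

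The promoter windows of this pair are shown because the neighbours come from one gene family and only Bst1 gave a signal well above background. RefSeq's GRCr8 table gives the 300 bases from 250 before to 50 after each gene's start, and 5 of the 6 members matched it. The windows are chr14:71482598-71482897 for Bst1 and chr14:71424456-71424755 for Cd38, both on the minus strand and written 5′ to 3′ with each CG dinucleotide in capitals.
Bst1: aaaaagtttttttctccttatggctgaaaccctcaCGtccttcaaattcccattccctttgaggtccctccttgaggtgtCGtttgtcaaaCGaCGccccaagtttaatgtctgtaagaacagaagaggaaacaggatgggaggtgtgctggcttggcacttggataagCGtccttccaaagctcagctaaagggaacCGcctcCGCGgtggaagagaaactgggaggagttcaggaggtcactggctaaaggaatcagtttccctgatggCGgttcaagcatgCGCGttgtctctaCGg
Cd38: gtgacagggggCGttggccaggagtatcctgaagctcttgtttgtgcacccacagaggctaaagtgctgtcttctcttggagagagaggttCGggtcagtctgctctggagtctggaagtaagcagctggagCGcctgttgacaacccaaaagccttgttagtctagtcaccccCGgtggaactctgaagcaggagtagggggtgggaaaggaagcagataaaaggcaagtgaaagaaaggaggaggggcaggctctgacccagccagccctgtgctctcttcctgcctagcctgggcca
The Bst1 window holds 12 CG dinucleotides and the Cd38 window 4, against a median of 7 over the 33469 windows in the table. Their GC content was 50.3% for Bst1 and 56.3% for Cd38, with a median of 51.7% over all windows.

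Both strands of every window were searched for 5 short motifs. The core promoter element TATAAA occurs in 14.2% of all windows. The CCAAT box occurs in 37.5%. The GC box, GGGCGG, occurs in 33.1% of them. The PU.1-type box searched, named for a macrophage transcription factor, was GAGGAAGT and occurs in 2.42%. The AP-1 box searched was TGANTCA and occurs in 7.33%. None of the 5 occurred in the Bst1 or the Cd38 window. Among the other members the Nt5e window held 26 CG dinucleotides and 3 GC boxes, 2 of which overlap each other. The Entpd1 window held 7 CG dinucleotides and 2 CCAAT boxes, and the Enpp3 window held 5 CG dinucleotides and 1 CCAAT box. A match is a description of letters and not a measured binding site.

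Genes around the members were compared in RefSeq's order, taking the 5 protein-coding genes on each side. The 6 members had 40 other neighbours, of which 32 were on the array and 15 were tested. Of the 15, 0 were higher and 0 were lower at P200 by limma at an adjusted p under 0.05, and 4 had an unadjusted p under 0.05. Their changes ran from -0.26 to 0.26. Around Bst1, Tapt1 changed by 0.06, Fbxl5 by 0.04, Cpeb2 by -0.26 and Rab5al1 by -0.25.

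Entpd1, the enzyme that takes ATP to AMP, was well above background on all 8 arrays, with its probe at chr1:245887283-245887342 of rn4. Its level was 0.15, 0.30, 0.24 and 0.31 on P20 replicates 1 to 4, and 0.70, 0.47, 0.39 and 0.57 on P200 replicates 1 to 4. Every P200 array lay above every P20 array, with a gap of 0.08 between the groups. The means were 0.25 ± 0.08 (SD, n = 4) at P20 and 0.53 ± 0.13 (SD, n = 4) at P200. The difference was 0.28 ± 0.08 (moderated SE), or 1.22-fold, and it was 0.33 and 0.41 within the 2 slide rows.

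Nt5e, which makes adenosine from AMP, was also well above background on all 8 arrays, with its probe at chr8:93634357-93634416 of rn4. Its level was 1.37, 1.60, 1.58 and 1.48 on P20 replicates 1 to 4, and 1.64, 1.78, 2.05 and 1.93 on P200 replicates 1 to 4. The groups did not overlap, but the gap was only 0.03 between the highest P20 and the lowest P200 array. The means were 1.51 ± 0.11 (SD, n = 4) and 1.85 ± 0.18 (SD, n = 4), a difference of 0.34 ± 0.10 (moderated SE) or 1.26-fold. Within slide row 1 the difference was 0.55, and within row 2 it was 0.08. With the row as a block in the fit it was 0.31 ± 0.12 (moderated SE).

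Enpp1 and Enpp3, the pair of phosphodiesterases, were both lower at P200 and lie next to each other on chromosome 1. Their probes were 127.5 kb apart on rn4, at chr1:21287338-21287397 for the brighter Enpp1 probe and chr1:21159733-21159792 for Enpp3. Both 60-base probes are shown as the array carries them, because the genes are adjacent relatives and both read lower at P200. The longest run the probes share is in capitals.
Enpp1: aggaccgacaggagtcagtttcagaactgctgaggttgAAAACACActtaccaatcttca
Enpp3: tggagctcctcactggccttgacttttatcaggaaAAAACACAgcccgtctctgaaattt
That run is 8 bases long, and the best alignment without gaps matched 21 of 55 bases.

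Enpp3, a surface marker of basophils and mast cells (CD203c), was well above background on all 8 arrays. Its level was 0.45, 0.34, 0.18 and 0.37 on P20 replicates 1 to 4, and -0.81, -0.61, -0.48 and -0.30 on P200 replicates 1 to 4. The groups did not overlap and were 0.48 apart, and among the P200 arrays replicate 1 was the lowest and replicate 4 the highest. The means were 0.34 ± 0.12 (SD, n = 4) and -0.55 ± 0.21 (SD, n = 4). The difference was -0.89 ± 0.11 (moderated SE), or 1.85-fold lower at P200, and was -0.91 and -1.11 within the slide rows.

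The Enpp3 probe was printed 10 times on each array, which gives a technical error of its own. The SD between these spots was 0.068 to 0.299, and 9 or 10 spots were used per array. The widest spread was on P20 replicate 3, where spots ran from -0.63 to 0.40. On the other 3 P20 arrays the lowest spot was at 0.21, and the highest spot on any P200 array was at -0.14.

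**Figure D1:**
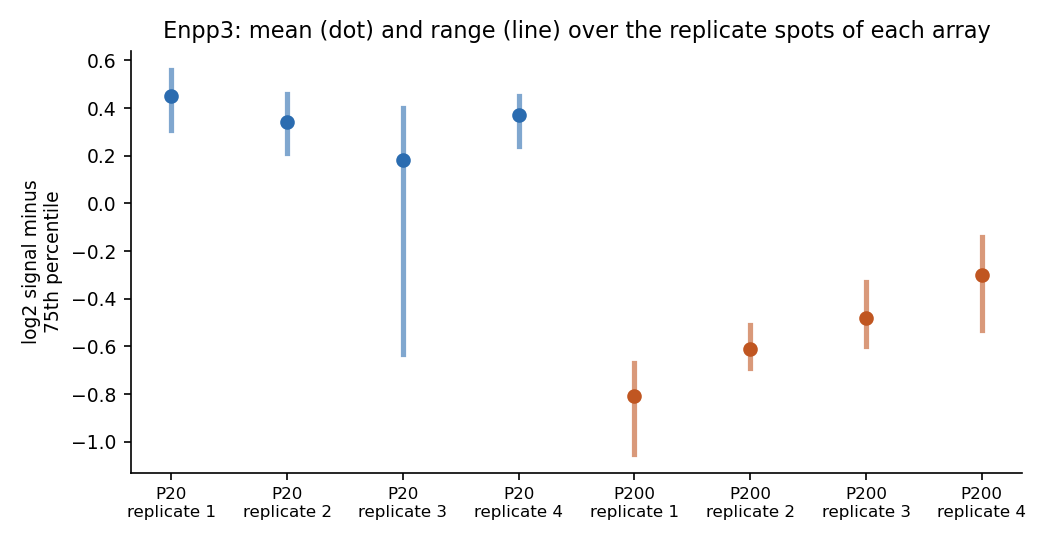
The level of Enpp3 (log2 processed signal minus the array's 75th percentile) on each of the 8 arrays, with the mean over the replicate spots as a dot and their range as a line, P20 in blue and P200 in orange. P20 replicate 3 has the longest line, from -0.63 to 0.40, and is the only P20 array with spots as low as those of the P200 arrays.

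Because Enpp3 is known from basophils and mast cells, a list of 9 genes of basophils, mast cells and granulocytes was set beside it. Kit, Mpo, Elane, S100a8 and S100a9 were above background on no array. Cpa3 and Ms4a2 were above background on at least 1 array but not on all 4 of either passage, and so were not tested. The summed level of the list was 2.96 to 3.16 at P20 and 1.82 to 2.20 at P200. Nearly all of that sum was Camp, an antimicrobial peptide gene, at 3.00 ± 0.08 (SD, n = 4) and 1.87 ± 0.16 (SD, n = 4), so its fall is that of 1 gene. Of the list, 2 genes were tested: Camp was lower by -1.13 ± 0.09 (SE, limma adjusted p = 5.16e-05), and Hdc, which makes histamine, changed by -0.12 ± 0.17 (SE, adjusted p = 0.739). The part of such cells in the Enpp3 difference was not tested.

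Marker lists of other cell types were checked in the same way. The summed level of 8 fibroblast and bone marrow stroma genes, set beside Bst1, was 2.74 to 2.93 at P20 and 2.91 to 3.12 at P200, with Col1a1, Col3a1, Pdgfra, Pdgfrb and Cxcl12 above background on no array and Dcn, Col1a2 and Thy1 on all 8. Dcn, a matrix proteoglycan, was at 2.68 ± 0.12 (SD, n = 4) at P20 and 2.89 ± 0.16 (SD, n = 4) at P200 and made up most of that sum. For 6 endothelial genes it was 3.83 to 4.08 and 3.97 to 4.26, with Kdr, Tek and Cldn5 on no array and Pecam1, Vwf and Cdh5 on all 8. For 8 lung epithelium genes it was -3.0 to -1.72 and -2.67 to -1.74, and Epcam, Cdh1, Sftpa1, Sftpb, Sftpd, Krt18 and Krt19 were above background on no array. Sftpc was above background on at least 1 array but was not tested. No gene of these 3 lists passed the limma test, where 6 genes were tested and 0 had an unadjusted p under 0.05.

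Enpp1, which makes pyrophosphate from ATP and hydrolyses the messenger cGAMP, was near background at P200. Its brighter probe was well above background on 4 of 4 P20 arrays and on 1 of 4 P200 arrays, replicate 4. The level was -2.08, -2.48, -2.48 and -2.25 on P20 replicates 1 to 4, and -3.68, -3.60, -3.23 and -2.84 on P200 replicates 1 to 4. The groups did not overlap and were 0.35 apart, with P200 replicate 4 nearest to the P20 arrays. The means were -2.32 ± 0.20 (SD, n = 4) and -3.34 ± 0.39 (SD, n = 4). The difference was -1.01 ± 0.19 (moderated SE), or 2.02-fold lower, and -1.14 and -1.28 within the slide rows. The background correction moved it by more than its replicate spread, to -0.29 under normexp correction and -0.36 on the deposited spot medians.

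A second Enpp1 probe, at chr1:21288546-21288605 of rn4, was dimmer. It was well above background on 2 of 4 P20 arrays and on 0 of 4 P200 arrays, and so was not tested. Its level was -3.99, -3.87, -3.52 and -4.58 at P20 and -6.08, -6.12, -5.84 and -4.73 at P200. The P200 arrays again lay lower, and no fold is given because the signal was not well above background on most arrays.

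**Figure D2:**
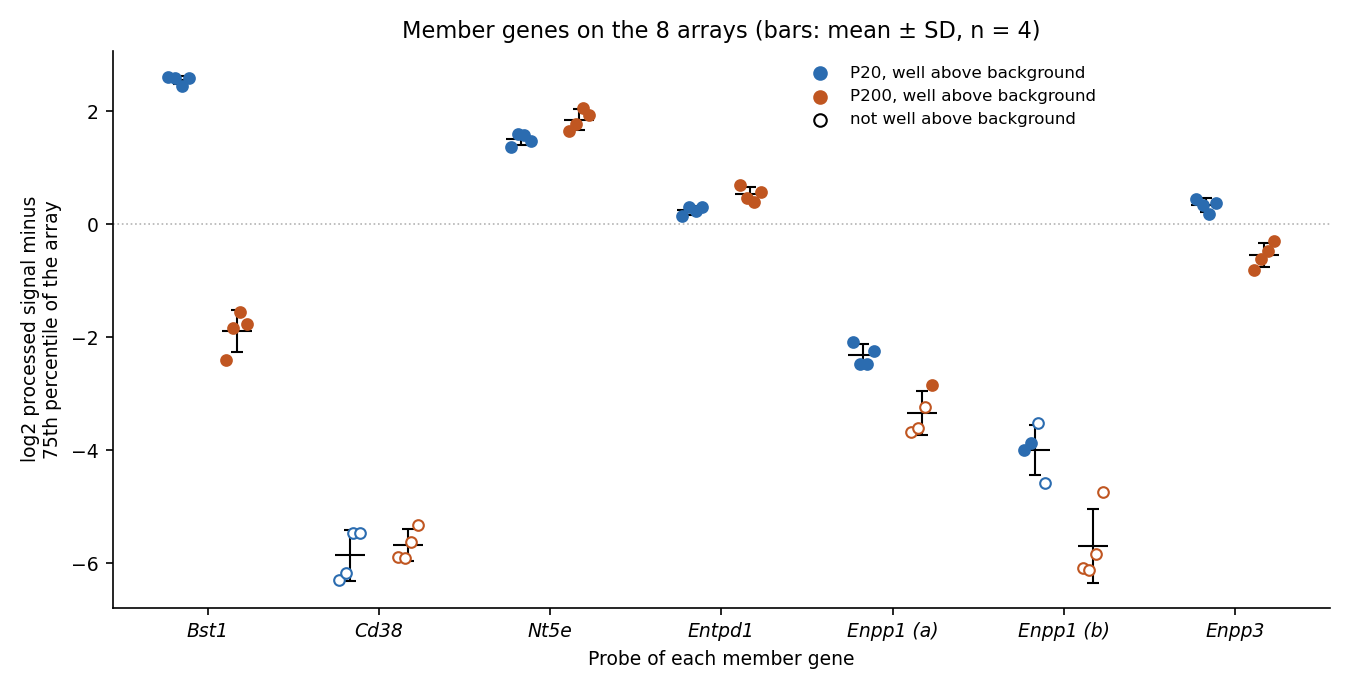
Level of every member probe on each array (log2 processed signal minus the array's 75th percentile), P20 in blue and P200 in orange, open circles where the probe was not well above background, with the mean and SD of 4 arrays as black bars; (a) and (b) are the brighter and the dimmer Enpp1 probe. Bst1 falls from 2.55 to -1.89, Cd38 is open on all 8 arrays, and levels of different probes are not comparable.

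The members went in both directions. Of the 5 tested, 3 (Bst1, Enpp1 and Enpp3) were lower at P200 at the threshold used for all genes, 0 were higher, and 2 (Nt5e and Entpd1) did not pass it. Bst1 and Enpp3 stayed past it in 17 of 17 alternatives, and Enpp1 in 13 of 16. Entpd1 passed it in 3 of 17 alternatives and Nt5e in 1 of 17. Enpp1 missed it under normexp correction, on the deposited spot medians and with no filter on dim probes. Over all genes tested, 5.53% were lower, 5.99% were higher and 11.5% passed in either direction. The groups did not overlap for 5 of the 5 members tested and for 19.6% of all genes tested. The members were picked on this same contrast, every alternative reuses these arrays, and Enpp1 passed the filter through its P20 arrays alone. Nothing is therefore read from these counts, those over the alternatives included. The median change over all genes was 0.0, and 498 genes, or 3.18%, differed by at least 1 log2 unit.

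**Figure D3:**
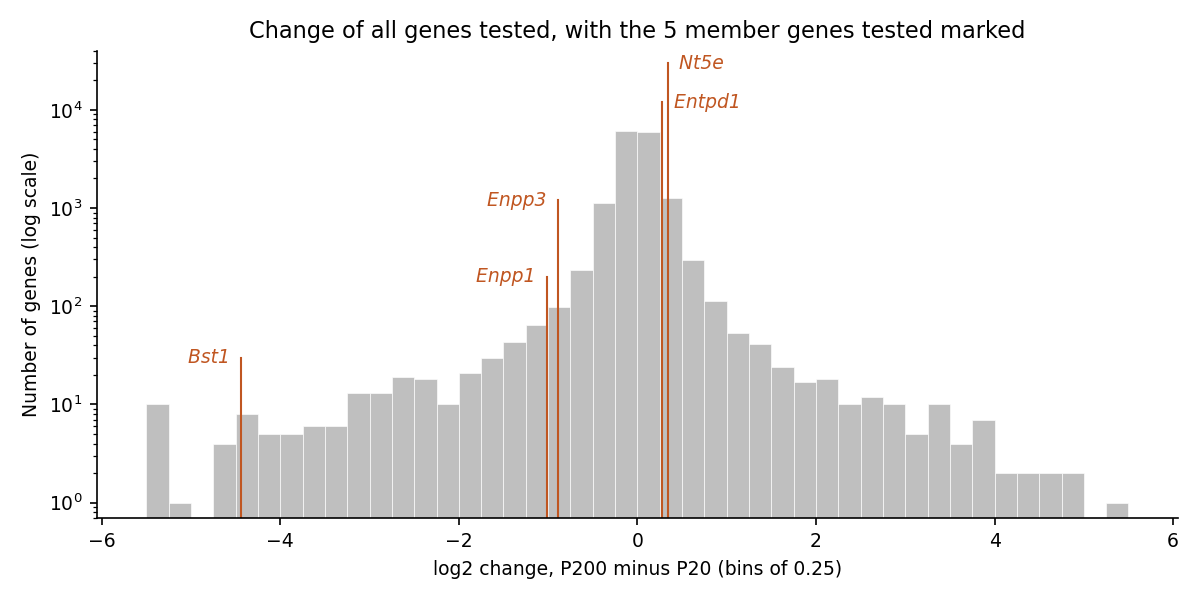
Number of genes (log scale) by log2 change from P20 to P200 in bins of 0.25, for all 15651 genes tested, with the 5 member genes tested marked by orange lines whose heights only separate the labels; changes beyond the axis range are counted in the outermost bins. Bst1 at -4.44 stands in the thin left tail, and Nt5e and Entpd1 stand in the bulk.

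Replicate spread differed between members. The SD of Bst1 over the P200 arrays was 0.369, larger than that of 91.2% of all genes tested, while at P20 it was 0.075, larger than that of 28.0%. The SD of Enpp1 was large at both passages, with 0.387 at P200, larger than that of 92.2% of genes, and 0.197 at P20, larger than that of 79.6%. The median SD over all genes was 0.108 at P20 and 0.144 at P200, and each of the 5 members tested had a larger SD at P200 than at P20. P200 replicate 1 had the lowest level of Bst1, Enpp1 and Enpp3, and without it their differences were -4.27, -0.90 and -0.80.

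The genes that share these pathways were taken from 8 lists of 109 entries without the members, of which 107 were on the array and 74 were tested. By limma with Benjamini-Hochberg adjustment over all 15651 genes, 5 were higher and 6 were lower at P200 and 63 did not pass. That is 14.9% called, beside 11.5% of all genes, and the median change was 0.04. The number called ranged from 5 to 11 when single arrays were left out, with 6 called without P20 replicate 1 and 5 without P20 replicate 3. It was 2 with the array median for scaling and 3 with no filter on dim probes.

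Among 15 other genes of the ectonucleotidase and phosphatase families, 9 were tested and 0 passed in limma. Of the 9, 4 had an unadjusted p under 0.05. Entpd2, Entpd3, Entpd8, Enpp2, Enpp7 and Alpl were not tested. The largest change was that of Enpp4, a relative of Enpp1, at -0.34 ± 0.10 (SE, adjusted p = 0.0707). The 15 P2 receptors, which sense ATP, ADP and UTP, had 7 tested genes and 0 calls, with 4 at an unadjusted p under 0.05. The largest change there was P2ry14, a receptor for UDP-sugars, at -0.32 ± 0.15 (SE, limma adjusted p = 0.258). The 8 genes of nucleotide release had 4 tested and 0 calls, with 1 at an unadjusted p under 0.05, and the largest change was Lrrc8a, a volume-regulated channel subunit, at 0.22 ± 0.09 (SE, limma adjusted p = 0.158).

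Of 4 adenosine receptor genes 3 were tested, and 1 was lower and 0 were higher. Adora2b changed by -0.19 ± 0.09 (SE, limma adjusted p = 0.226) and Adora3 by 0.27 ± 0.13 (SE, limma adjusted p = 0.25). Adora2a, a receptor through which adenosine raises cyclic AMP in macrophages, was well above background on 4 P20 arrays and on 0 P200 arrays. Its level was -3.51, -3.72, -3.33 and -3.33 on P20 replicates 1 to 4, and -4.30, -4.61, -5.00 and -4.79 on P200 replicates 1 to 4. The P200 arrays were all lower, and against the lowest signal well above background on each P200 array the fold was at least 1.12-fold lower. The limma call (adjusted p = 0.00116) belongs to the fitted change of -1.2 and not to this bound. That change uses P200 signals that were not well above background, and the gene passed the filter through P20 alone. The measured means were -3.48 ± 0.19 and -4.68 ± 0.30 (SD, n = 4). The call was lost under normexp correction and on the deposited spot medians, with a change of -0.24 at the smallest.

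The 20 genes of nucleoside transport and adenosine metabolism had 18 tested, 2 higher and 1 lower. Ada, adenosine deaminase, which turns adenosine into inosine, was at -1.96, -2.08, -1.85 and -2.18 on P20 replicates 1 to 4 and at -1.10, -0.99, -0.99 and -1.15 on P200 replicates 1 to 4. All P200 arrays were above all P20 arrays, and the difference was 0.96 ± 0.08 (SE, limma adjusted p = 0.00011), or 1.94-fold. Ada passed the test in 17 of 17 alternatives, with a change from 0.59, under normexp correction, to 1.01. Slc29a1, the equilibrative nucleoside transporter, was higher by 0.27 ± 0.07 (SE, adjusted p = 0.0316), and Slc28a1, a concentrative one, was lower by -0.72 ± 0.19 (SE, adjusted p = 0.0427). Each of these 2 calls held in 6 of 17 alternatives, and each was lost without 6 of the 8 single arrays. Over the arrays left out, the adjusted p ran from 0.0366 to 0.0939 for Slc29a1, lost without P20 replicates 1, 3 and 4 and P200 replicates 1, 2 and 4. It ran from 0.0119 to 0.109 for Slc28a1, lost without any 1 of the P20 replicates and without P200 replicates 2 and 4. The change of Slc28a1 ranged from -0.90 to -0.41 over all alternatives.

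Among the 15 genes of NAD synthesis, which feed the substrate of Bst1 and Cd38, 11 were tested, 1 was higher and 1 was lower. Nampt, the rate-limiting enzyme of NAD salvage, was lower by -0.32 ± 0.06 (SE, limma adjusted p = 0.00784), and its second probe changed by -0.33. Nadk, which makes NADP from NAD, was higher by 0.28 ± 0.06 (SE, limma adjusted p = 0.0165), and its second probe changed by 0.25. The Nadk call was lost without P20 replicate 1, P20 replicate 3 or P200 replicate 3, where its adjusted p reached at most 0.059.

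Among 21 ADP-ribosyltransferases and other NAD-consuming enzymes 20 were on the array, 15 were tested, 1 was higher and 2 were lower. Sirt2, a mainly cytoplasmic NAD-dependent deacetylase, was lower by -0.34 ± 0.06 (SE, limma adjusted p = 0.00745), and Parp3, a DNA-damage ADP-ribosyltransferase, by -0.28 ± 0.06 (SE, limma adjusted p = 0.0159). Sirt1, the nuclear deacetylase, was higher by 0.33 ± 0.09 (SE, limma adjusted p = 0.0464), a call that held in 3 of 17 alternatives. It was lost without each single array but P200 replicate 4, with an adjusted p of up to 0.127. The Parp3 call was lost without P20 replicate 3, at an adjusted p of 0.0553.

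The calcium channels and their regulators that cyclic ADP-ribose, ADP-ribose and related messengers act on had 11 entries, 10 on the array, 7 tested, 1 higher and 1 lower. Trpm2, a calcium channel opened by ADP-ribose, was at -0.59, -0.52, -0.26 and -0.60 on P20 replicates 1 to 4 and at 0.17, 0.20, 0.37 and 0.01 on P200 replicates 1 to 4. The groups did not overlap, and the difference was 0.68 ± 0.10 (SE, limma adjusted p = 0.00303), or 1.60-fold higher. Of its other probes, one above background on all 8 arrays changed by 0.76, and another was above background on 0 P20 arrays and 4 P200 arrays. The call was lost with the array median alone. Tpcn2, a lysosomal channel tied to NAADP signalling, was lower by -0.24 ± 0.07 (SE, limma adjusted p = 0.0495), and passed in 3 of 17 alternatives. It too was lost without each single array but P200 replicate 4, with an adjusted p of up to 0.124, and its other probes changed by -0.29 and -0.10.

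With the slide row as a block in the limma fit, 6 of the 11 pathway calls held: Ada (adjusted p = 0.00115), Adora2a (0.00638), Trpm2 (0.0129), Slc28a1 (0.0261), Nampt (0.0291) and Sirt2 (0.0343). The other 5 missed the threshold, with an adjusted p of 0.0531 for Nadk, 0.058 for Parp3, 0.0681 for Tpcn2, 0.0779 for Slc29a1 and 0.169 for Sirt1. For Adora2a this fit too uses P200 signals that were not well above background.

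**Figure D4:**
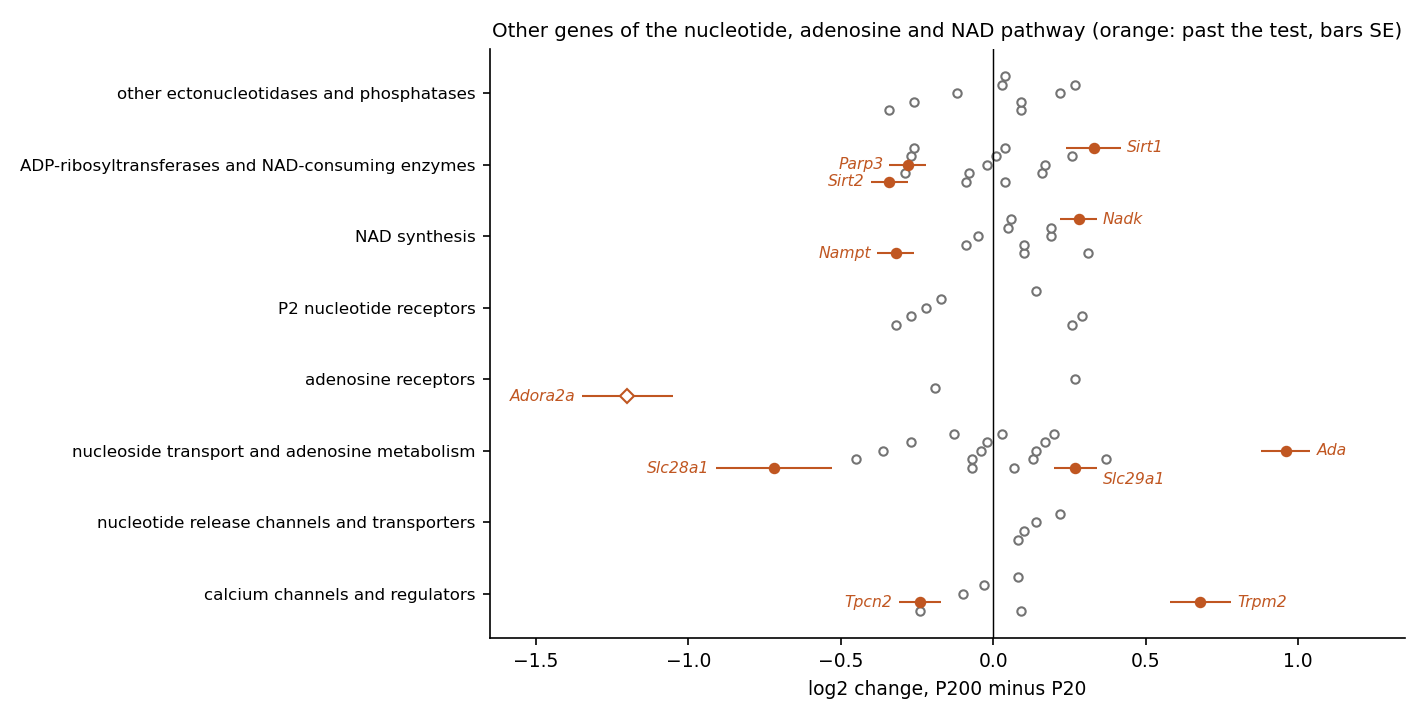
Log2 change from P20 to P200 of the 74 other genes tested in the 8 pathway lists, in orange and named where the gene passed the test (bars are the SE) and in open grey where it did not. Ada at 0.96 and Trpm2 at 0.68 lie farthest to the right, and the open diamond marks Adora2a, whose position is a fitted value only, since it was above background on 0 P200 arrays.

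The genes whose pattern over the 8 arrays was nearest to each member were named by the root mean square difference of log2 levels after each gene was centred on its own mean. For Bst1 these were 2 features with no gene name, then Col4a1, a basement membrane collagen, at 0.213, Pim3, a kinase, at 0.217 and Mta3, a chromatin factor, at 0.237. Each of the 5 was well above background on 4 P20 arrays and on 0 P200 arrays, so their P200 levels are not measured as that of Bst1 is. For Nt5e they were Glyr1 at 0.074, Sort1 at 0.076 and Epn1 at 0.081. For Entpd1 they were Rilp at 0.038, Ypel3 at 0.043 and 1 unnamed feature at 0.046. For Enpp3 they were Samd1 at 0.094, Cyp2c7 at 0.101 and 1 unnamed feature at 0.107. No correlation is given, because the arrays form 2 separate groups of 4.

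The direction of each of the 5 members tested was the same in every alternative run. Bst1 ranged from -4.64 to -3.57 over 17 alternatives, Enpp3 from -1.01 to -0.70, Nt5e from 0.27 to 0.41 and Entpd1 from 0.23 to 0.37. Enpp1 ranged from -1.21 to -0.29 over 16 alternatives, since it had no value where only probes above background on all 8 arrays were kept.

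**Figure D5:**
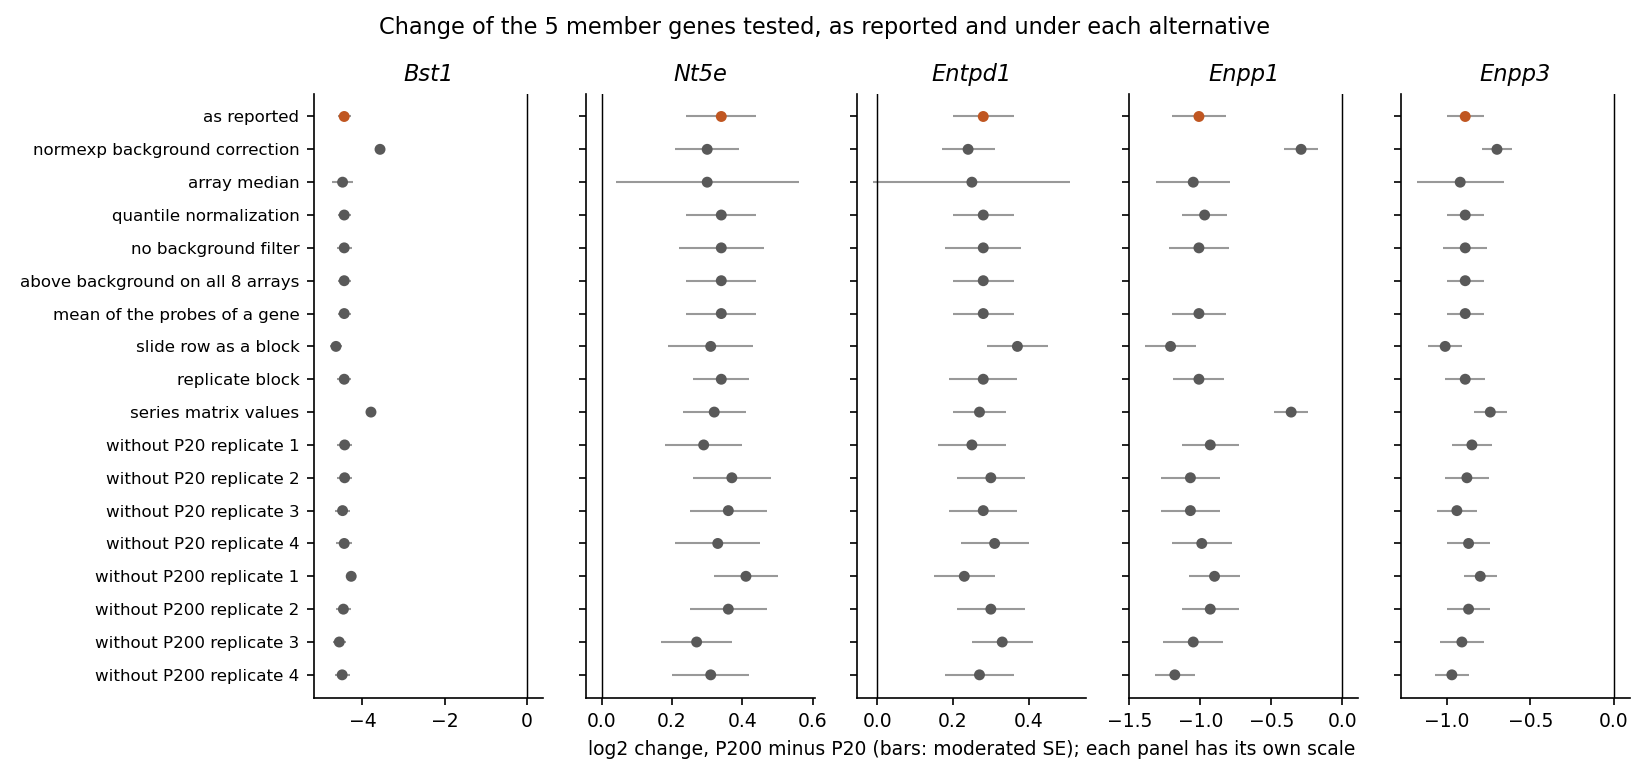
Log2 change from P20 to P200 (bars are the moderated SE) of the 5 members tested, as reported in orange and under each alternative in grey, each panel with its own scale. No point crosses 0. Entpd1 comes nearest to it, at 0.23 without P200 replicate 1, and Enpp1 comes to -0.29 under normexp background correction.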

How the data were processed

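The authors deposited 1-colour scanner files with the intensity of each spot, read with Agilent Feature Extraction 11.0.1.1 per the submitters' processing notes. Per the file headers, that software subtracts background, removes spatial trends and replaces signals near background by a surrogate, and no scaling between arrays was found in the values. The deposited series matrix holds spot median intensity. Its P200 columns 1, 2, 3 and 4 equal scanner files 2, 3, 4 and 1, and replicate numbers here are those of the scanner files.

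Of 62976 spots, the 4259 controls were left out, and so were outlier spots. The remaining spots of each of the 45598 probes were averaged as log2 of the deposited processed signal, less the array's 75th percentile over probes. Probes without a value on every array, 84 in number, were dropped. A probe was tested if well above background (at least 50% of its spots) on all 4 arrays of a group, and the brightest probe stood for a gene. limma 3.58.1 in R 4.3.3 (lmFit, eBayes, two-sided, adjusted p under 0.05) compared P200 with P20. A list's summed level is the log2 of its genes' summed signal on the same scale. Genes were named through RefSeq GRCr8 through accessions (21109 probes) or through symbols and synonyms (7108), and 17381 kept the file's name. Where a gene was above background on all arrays of 1 group and none of the other, its fold is a bound against each dim array's lowest signal well above background.

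The members, pathway lists and marker lists were chosen with earlier results of these data known, and 1 marker list is not reported here. Named from each list are the genes past the test, up to 4, or otherwise the one with the largest change. All 3 adenosine receptor genes tested are named. For likeness, 5 genes nearest to Bst1 and 3 nearest to each other member above background on all 8 arrays are named. The script was tested on simulated data. The number of arrays limits the precision. Alternatives covered background correction, scaling, the filter, the probe rule, slide row, replicate block, the deposited matrix and leaving out each array.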

Additional observations from a re-analysis of the deposited data

Results flagged for a closer look

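Of 36 groups of 4 arrays examined for an array far from the others, for the 7 member probes and the 11 pathway genes past the test, 1 stood out, and chance flags about 1 in 20 groups. Sirt2 was at 4.09 on P200 replicate 2, while the other P200 arrays were at 3.95. The gap was 0.993 of the range of the group. All 4 P200 arrays were below the P20 arrays, which stood at 4.27, 4.33, 4.31 and 4.41.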

How the results depend on the processing

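The number of genes called fell from 1804 to 653 with the array median and to 812 with no filter on dim probes, and the number of pathway genes called fell from 11 to 2 and 3. The cause was not tested. Leaving out each array in turn gave 5 to 11 pathway genes. Bst1 moved from -4.44 to -3.57 with normexp background correction and to -3.79 on the deposited spot medians, and no member tested and no pathway gene past the test changed direction in the alternatives run. The balance of all calls, 938 higher against 866 lower, turned to 286 against 367 with the array median, 389 against 423 with no filter and 688 against 691 without P200 replicate 3. Pairs of arrays with the same replicate number had deviations correlated at 0.025, 0.134, -0.003 and 0.281, and 3 of 8 arrays correlated best with their own number, so the numbers were not taken as pairs. With a replicate block 1503 genes were called, 785 higher and 718 lower, Bst1 stayed at -4.44, and Sirt1, Slc29a1, Slc28a1 and Tpcn2 missed the threshold at an adjusted p of 0.117, 0.0721, 0.067 and 0.0862. Signal near background limits Enpp1, Cd38 and Adora2a, and 4 arrays per passage limit every value.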
